A study of Mus musculus with 2 samples.

Results

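The 10 genes H2-K1, H2-D1, B2m, Tap1, Tap2, Tapbp, Psmb8, Psmb9, Nlrc5 and Erap1 carry most steps of classical MHC class I antigen presentation. They were picked by symbol from a feature table of 27998 genes, and all 10 were found. Droplet 3′ RNA sequencing (10x Genomics Chromium) was run on live CD45-positive cells of subcutaneous tumors of B16F10, a mouse melanoma line of the C57BL/6 background. Control hosts were C57BL/6 mice with floxed Usp18 alleles (Usp18f/f), and the other hosts carried the same floxed alleles together with LysM-Cre, whose Cre is driven from the Lyz2 locus in myeloid cells. Tumors were taken on day 14, and 4 tumors per group were pooled into 1 library per group. The genotype is that of the hosts and not of the injected melanoma cells. The labels give no age or sex. No difference between the libraries could be tested, and the intervals below cover counting error only, not the spread between mice.

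MHC class I molecules show peptides from inside a cell to CD8 T cells. Proteasomes with the interferon-inducible subunits Psmb8 and Psmb9 cut proteins into peptides, the Tap1-Tap2 transporter carries the peptides into the endoplasmic reticulum, Erap1 trims them, and Tapbp (tapasin) helps load them onto a heavy chain (H2-K1 or H2-D1) paired with B2m. Nlrc5 is a transactivator of these genes that binds their promoters through other factors, and Usp18, the gene floxed in this study, restrains signalling of the type I interferon receptor.

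Promoter stretches of H2-K1, H2-D1 and B2m are shown because these members moved together in several classes and hold most of the motifs searched. The motifs were a kB site (GGGNNTTCC), the core of an interferon-stimulated response element or ISRE (GAANNGAAA or GAAANNGAA), the X2 core (TGACG) and the Y box (CCAAT). Capitals mark their matches on either strand, the X2 core and the Y box lying in the promoter module at which Nlrc5 is known to act. All stretches are RefSeq sequence (GRCm38.p6), read 5′ to 3′ along the gene. The first 2 lie directly upstream of the start site, H2-K1 at chr17:34000348-34000597 on the minus strand and B2m at chr2:122147437-122147685 on the plus strand.
H2-K1: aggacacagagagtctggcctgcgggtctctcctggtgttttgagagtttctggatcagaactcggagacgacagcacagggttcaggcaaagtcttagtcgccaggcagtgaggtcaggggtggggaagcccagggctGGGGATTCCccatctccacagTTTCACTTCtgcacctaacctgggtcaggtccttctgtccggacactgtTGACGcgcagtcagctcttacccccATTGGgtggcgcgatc
B2m: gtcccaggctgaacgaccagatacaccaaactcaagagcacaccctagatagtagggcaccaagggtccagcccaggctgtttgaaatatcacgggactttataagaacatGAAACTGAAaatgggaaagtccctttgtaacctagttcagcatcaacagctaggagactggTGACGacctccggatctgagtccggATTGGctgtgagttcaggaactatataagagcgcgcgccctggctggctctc
The stretch from the kB site to the ISRE core was set beside its H2-D1 counterpart to show how alike the heavy chain promoters are, H2-K1 at chr17:34000429-34000458 (minus strand) and H2-D1 at chr17:35262923-35262952 (plus strand).
H2-K1 kB to ISRE: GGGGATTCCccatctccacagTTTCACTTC
H2-D1 kB to ISRE: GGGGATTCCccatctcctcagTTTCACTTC
They are identical at 29 of 30 bases. The H2-D1 stretch lies within an annotated exon of another H2-D1 transcript.

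Of the 10 members, 8 had an entry in the promoter table, and Tap2 and Nlrc5 had none. Within 250 bases upstream of the start, the kB site was found in H2-K1 and H2-D1 and in 4.98% of all 32851 promoter windows. An ISRE core was found in B2m, Erap1, H2-D1 and H2-K1 (12.5% of all windows). The X2 core was found in B2m, H2-D1, H2-K1, Psmb9 and Tap1 (17.8% of windows), and the Y box in these 5 genes and Tapbp (33.8%). Psmb9 and Tap1 start back to back with 225 bases between their start sites (chr17:34187331-34187555), so that stretch counts for both genes. A match describes letters in a window and not a bound site.

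Of the 10 genes, 7 lie on chromosome 17, in and around the H2 complex (GENCODE M21, GRCm38). H2-K1 (ENSMUSG00000061232) spans 33996017 to 34000347 on the minus strand, and H2-D1 (ENSMUSG00000073411) spans 35262730 to 35267499 on the plus strand. Psmb9, Tap1, Psmb8 and Tap2 are neighbours between 34181987 and 34216321. Elsewhere, B2m (ENSMUSG00000060802) lies on chromosome 2 at 122147686 to 122153083, Nlrc5 (ENSMUSG00000074151) on chromosome 8 at 94434356 to 94527272, and Erap1 (ENSMUSG00000021583) on chromosome 13 at 74639568 to 74693201. H2-K1, H2-D1 and the H2-Q genes are distinct but related in sequence, so the split of 3′ reads among them is uncertain. The annotated Psmb9 and Tap1 genes also overlap at their starts.

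The control library held 7754 barcodes and 43412346 unique molecular identifiers (UMIs, each one counted molecule), and the library with LysM-Cre held 6063 barcodes and 48167632 UMIs. Of these, 6646 and 5451 cells were kept, and 8 barcode sequences occurred in both libraries. Usp18 went against the label: in mononuclear phagocytes, the macrophage-like and monocyte-like clusters together, it stood at 18.0 CPM (UMIs of a gene per 1000000 UMIs of the class) in control and 97.4 CPM in the other library. Which part of Usp18 is deleted is not given in the sources used here, and a 3′ count can read transcript outside it, so this value may not report the deletion. Lyz2, the locus that carries Cre, went with the label, from 9301 to 17.5 CPM. The second library is therefore called the library labelled knockout, and all directions given are relative to that name. Both pools mixed cells of male and female mice: 1484 control cells held Xist without Y-linked UMIs and 2576 held Y-linked UMIs without Xist, against 3505 and 567 in the library labelled knockout. Genotype, sex mixture and single tumors cannot be told apart at the level of the pools, so the main values are also given within cells of each kind. Cell classes were rebuilt from markers and rest on transcripts alone.

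The members took very different shares of each class's UMIs. Together they made up 1.10% of the UMIs of migratory dendritic cell (DC)-like cells in control and 1.25% in the library labelled knockout. The share in T-cell-like cells was 0.886% and 0.986%, and in monocyte-like cells 0.514% and 0.850%. Melanoma-like cells, which entered through the CD45 sort, stood lowest at 0.0815% and 0.142%. All 4 classes thus carried a larger share in the library labelled knockout.

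**Figure D1:**
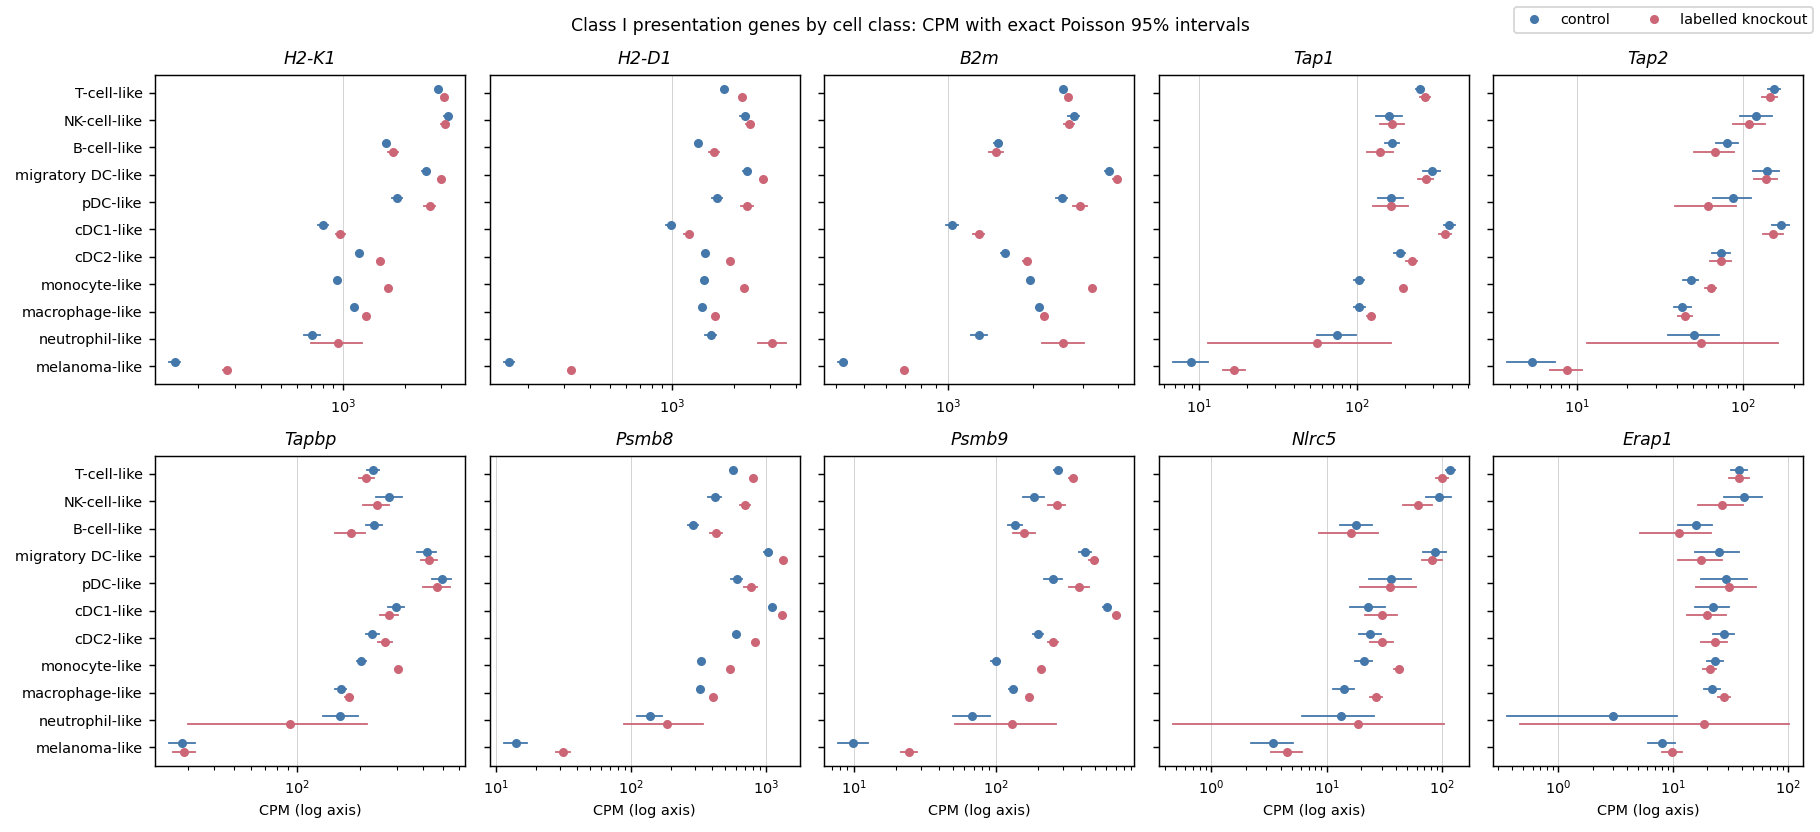
CPM (x axis, log scale, a separate range for each gene) of the 10 members in 11 cell classes (y axis), with 1 point per library and exact Poisson 95% intervals. Melanoma-like cells lie lowest for nearly every gene, while the class with the highest level differs between genes.

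B2m, the light chain shared by all classical class I molecules, was highest in migratory DC-like cells in both libraries, at 3709 CPM (95% counting interval 3583 to 3839) in control and 3959 CPM (3849 to 4071) in the library labelled knockout. Its lowest level was in melanoma-like cells, at 422 and 698 CPM. The order of the immune classes changed between the libraries: monocyte-like cells were in sixth place in control, at 1941 CPM, and in the second place in the library labelled knockout, at 3227 CPM. In control the intervals of T-cell-like and plasmacytoid DC (pDC)-like cells overlapped, as did those of type 2 conventional DC (cDC2)-like and B-cell-like cells.

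The heavy chain H2-K1 was highest in NK-cell-like cells, at 3213 CPM in control and 3113 CPM in the library labelled knockout, where its interval overlapped that of T-cell-like cells. H2-D1 was highest in migratory DC-like cells in control, at 2313 CPM with an interval overlapping that of NK-cell-like cells, and in neutrophil-like cells in the library labelled knockout, at 3076 CPM. That last value rests on 28 cells and 166 UMIs, and its interval overlapped that of migratory DC-like cells. The heavy chains were weighted differently by lineage: H2-K1 took 61.7% of their summed UMIs in control T-cell-like cells (exact binomial 95% interval 61.0 to 62.4) but 39.6% (38.9 to 40.3) in monocyte-like and 31.5% (29.2 to 33.9) in neutrophil-like cells. In the library labelled knockout the T-cell-like share was 58.6% (57.7 to 59.4) and the monocyte-like share 42.3% (41.9 to 42.8). These shares rest on the uncertain split of 3′ reads between the heavy chain genes, which their intervals do not cover.

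Most processing and loading genes were highest in dendritic cells, with Erap1 as the exception. Tap1 and Tap2, the subunits of the peptide transporter, were highest in type 1 conventional DC (cDC1)-like cells, a class known for cross-presentation, at 382 and 167 CPM in control and 361 and 151 CPM in the library labelled knockout. For Tap2 the intervals of cDC1-like and T-cell-like cells overlapped in both libraries. Tapbp was highest in pDC-like cells, at 494 and 469 CPM, with intervals that overlapped those of migratory DC-like cells. Psmb8 stood at 1105 CPM in control cDC1-like cells and at 14.1 CPM in control melanoma-like cells, a 78.3-fold span. In the library labelled knockout it was highest in migratory DC-like cells, at 1336 CPM, which was 42.3-fold the level of 31.6 CPM in melanoma-like cells. Its intervals in cDC1-like and migratory DC-like cells overlapped in both libraries. Erap1 was low in every class, with its highest level in NK-cell-like cells in control (41.3 CPM) and in T-cell-like cells in the library labelled knockout (37.7 CPM), and the intervals of nearly all neighbouring classes overlapped.

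Nlrc5 was led by T-cell-like, NK-cell-like and migratory DC-like cells, while B-cell-like cells stood low in both libraries. In control it was highest in T-cell-like (117 CPM, 107 to 129), NK-cell-like (94.0 CPM, 72.7 to 120.0) and migratory DC-like cells (86.5 CPM, 68.2 to 108), whose intervals overlapped from one to the next. A gap separated them from pDC-like cells (36.1 CPM, 23.3 to 53.3), after which each class overlapped with the next down to neutrophil-like cells at 13.4 CPM. Melanoma-like cells, at 3.46 CPM (2.24 to 5.11), lay below all the others. When every cell was thinned to 1000 UMIs, 11.9% of 1204 control T-cell-like cells held an Nlrc5 UMI, against 1.84% of 1743 mononuclear phagocytes and 1.66% of 1387 B-cell-like cells. Without thinning these shares were 28.4%, 11.9% and 2.77%. No thinned melanoma-like cell held one, in 139 control cells and 248 of the library labelled knockout. At so low a level, thinning leaves few Nlrc5 UMIs to find in that many cells, so this 0 says little. Without thinning, 11.6% of 129 deeply sequenced melanoma-like cells in control held one, and 19.6% of 179 in the library labelled knockout.

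Mononuclear phagocytes, with 1799 control cells and 2661 of the library labelled knockout, had higher levels of most members in the library labelled knockout. All 10 members had a log2 ratio above 0, computed here and below as log2 of (CPM + 5) in the library labelled knockout over (CPM + 5) in control. At least 0.5 was reached by 5 of 10 members, where 2.86% of the 11860 genes measured with at least 20 UMIs did so. The members' median log2 ratio was 0.49, beside -0.03 over all those genes.

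Nlrc5 had the largest ratio in these cells, from 17.7 to 34.7 CPM (log2 ratio 0.81), a 1.97-fold difference (1.70 to 2.28). The immunoproteasome subunit Psmb9 went from 116 to 191 CPM (0.69) and its partner Psmb8 from 328 to 478 CPM (0.54). Tap1 stood at 103 and 160 CPM (0.61). Thus the regulator, the peptide cutters and Tap1 led the list. H2-K1 went from 1032 to 1484 CPM (0.52), H2-D1 from 1416 to 1950 CPM (0.46) and B2m from 2014 to 2733 CPM (0.44). Tapbp stood at 184 and 243 CPM (0.40), and Tap2 at 45.9 and 54.6 CPM (0.23). Erap1, at 22.7 and 24.1 CPM, had a fold of 1.06 with an interval that spans 1 (0.92 to 1.23).

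Monocyte-like cells carried most of that difference. In 1200 and 1714 cells, 8 of 10 members reached a log2 ratio of 0.5 (5.34% of all measured genes) and the median was 0.72. Psmb9 more than doubled, from 100.5 to 208 CPM (1.02), and Nlrc5 went from 20.9 to 42.0 CPM (0.86). Tap1 stood at 103 and 195 CPM (0.89), H2-K1 at 939 and 1650 CPM (0.81) and B2m at 1941 and 3227 CPM (0.73). The trimming enzyme Erap1 was the exception, at 23.4 and 20.9 CPM (-0.13). Macrophage-like cells differed less, with a median of 0.22 in 599 and 947 cells, and the only one of 10 members at 0.5 or more (1.94% of all genes) was Nlrc5, from 14.1 to 26.7 CPM (0.73). There B2m stood at 2094 and 2189 CPM (0.06). The difference between these classes was not tested.

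**Figure D2:**
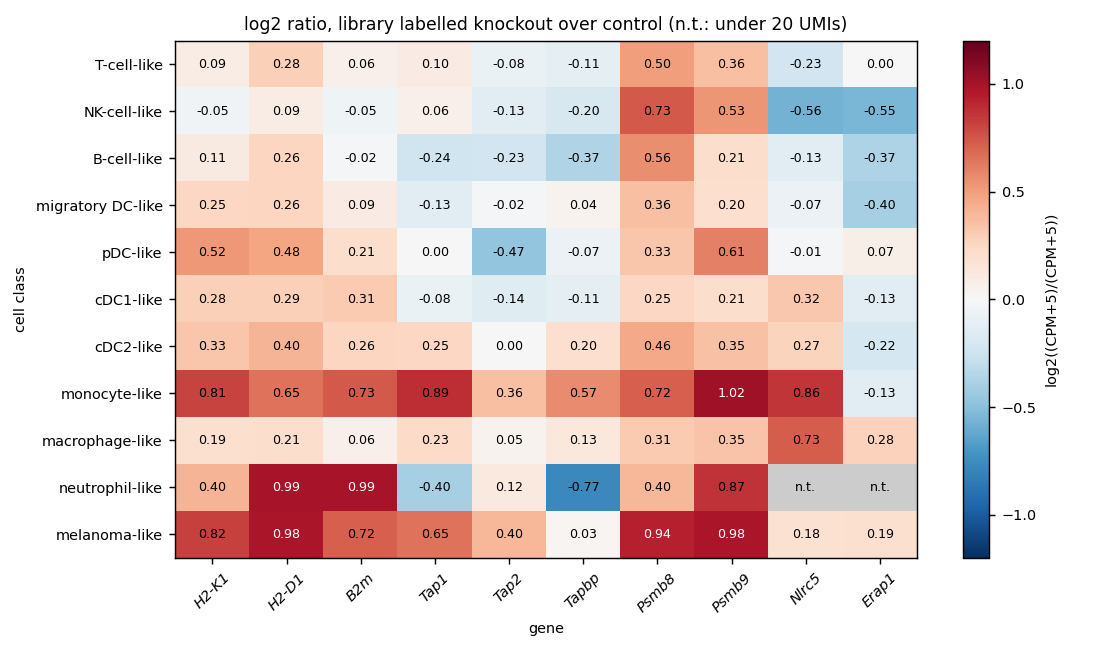
Log2 ratio of each member (columns) in each of 11 cell classes (rows), library labelled knockout over control, with the value written in each cell and 2 cells with fewer than 20 UMIs left without one. Monocyte-like and melanoma-like cells hold most of the high values, and the rows of the T-cell-like, B-cell-like and NK-cell-like classes are mixed in sign outside Psmb8, Psmb9 and H2-D1.

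The monocyte-like clusters were not alike. In the cluster led by Ccl24, Ccl7, Spp1 and the interferon-stimulated Rsad2, with 196 control cells and 655 of the library labelled knockout, the members' median was 0.97 and 8 of 10 reached 0.5 (9.76% of genes). B2m there stood at 1589 and 3261 CPM, and H2-K1 at 851 and 1739 CPM. At a clustering resolution of 2, a cluster led by the interferon-stimulated Ifit1bl1, Rsad2 and Isg15 separated from the Ccl24 cluster, with 3 control cells and 171 of the library labelled knockout, while the Ccl24 cluster held 144 and 406. The cells set against each other in the Ccl24 and Rsad2 cluster thus differed in makeup between the libraries. In the cluster led by Ppbp, Arg1 and the hypoxia-associated Hilpda and Egln3, with 313 and 304 cells, the median was 0.92 with 9 of 10 members at 0.5 or more (11.4%). Nlrc5 in that cluster was counted 8 times in control, at 4.44 CPM, and 42 times in the library labelled knockout, at 25.2 CPM. The Chil3, Vcan and Ly6c2 cluster had a median of 0.56, and the patrolling-type cluster led by Adgre4, Ace and Treml4 had 0.31. Another cluster with Chil3, led also by Hp, C3 and Tppp3 (180 and 133 cells), had 0.59. There 6 of 10 members reached 0.5 (8.98% of genes). Among macrophage-like clusters, the C1q and Trem2 cluster stood at 0.26 and the cycling cluster at 0.12. A shallow cluster led by Ccl8 and Mrc1, with 62 and 258 cells at medians of 1024 and 788 UMIs, stood at 0.44 over the 8 members measured. Usp18 itself went from 19.0 to 153 CPM in monocyte-like cells and from 17.0 to 36.5 CPM in macrophage-like cells, so the class with the larger Usp18 difference also had the larger class I median. Its part in the result was not tested.

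Monocyte-like cells showed the difference in cells of either sex, and macrophage-like cells in those with Xist but not in those with Y-linked UMIs. Among monocyte-like cells with Xist (294 control cells and 1322 of the library labelled knockout) the median was 0.54 with 5 of 10 members at 0.5 or more (8.89% of genes), and among those with Y-linked UMIs (538 and 131 cells) it was 0.59 with 8 of 10 (8.62%). B2m went from 2498 to 3192 CPM in the first and from 1711 to 3240 CPM in the second. Macrophage-like cells with Xist (153 and 427 cells) had a median of 0.50 with 5 of 10 (5.34%), but those with Y-linked UMIs (294 and 218 cells) had -0.08 with 0 of 10 (2.92%). In the latter, H2-K1 stood at 1066 and 926 CPM and Tap2 at 47.5 and 30.5 CPM, both lower in the library labelled knockout. Taking all mononuclear phagocytes with Y-linked UMIs, the median was 0.17 and 0 of 10 members reached 0.5 (4.69%), against 0.56 and 7 of 10 (4.88%) in those with Xist. These pools of cells also differ in makeup, since the 832 control phagocytes with Y-linked UMIs were 538 monocyte-like and 294 macrophage-like, and the 349 of the library labelled knockout were 131 and 218.

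**Figure D3:**
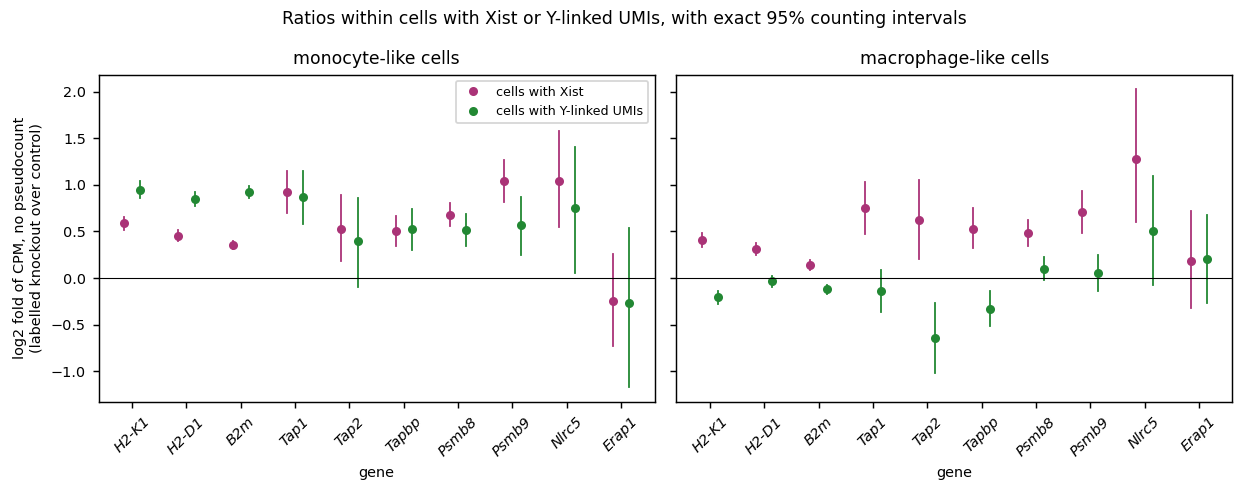
Log2 fold of CPM without a pseudocount (y axis, library labelled knockout over control) for the 10 members in monocyte-like (left) and macrophage-like cells (right), with exact 95% counting intervals, for cells with Xist only and cells with Y-linked UMIs only. In monocyte-like cells the points of both kinds lie above 0 for all members but Erap1, and in macrophage-like cells those with Y-linked UMIs lie near or below 0 for most members.

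The dendritic classes had lower medians than monocyte-like cells. The members' median log2 ratio was 0.23 in cDC1-like, 0.26 in cDC2-like, 0.14 in pDC-like and 0.07 in migratory DC-like cells. B2m, H2-K1 and H2-D1 together still took a larger share of UMIs in the library labelled knockout. That share went from 0.282% to 0.346% in cDC1-like, 0.422% to 0.532% in cDC2-like and 0.602% to 0.788% in pDC-like cells. In migratory DC-like cells it went from 0.855% to 0.971%, beside 0.463% and 0.511% in macrophage-like cells. None of the 10 members reached 0.5 in cDC1-like (6.15% of genes did), cDC2-like (4%) or migratory DC-like cells (17.8%), and in pDC-like cells H2-K1 (1833 and 2637 CPM, 0.52) and Psmb9 (254 and 390 CPM, 0.61) did, where 8.62% of genes did. Psmb8, the most abundant of the processing subunits' transcripts in cDC2-like cells, stood at 600 and 825 CPM there (0.46). Neutrophil-like cells had 538 control cells but 28 in the library labelled knockout. In them 8 members could be compared and 3 reached 0.5 (17.1% of genes), with H2-D1 at 1548 and 3076 CPM (1.99-fold, 1.68 to 2.34). Tapbp was the 1 member at or below -0.5 (43.1% of genes), at 161 and 92.7 CPM (-0.77), the latter from 5 UMIs.

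Lymphoid cells had member medians near 0, at 0.08 in T-cell-like, -0.05 in NK-cell-like and -0.07 in B-cell-like cells. Psmb8 was higher in each: 568 and 808 CPM in T-cell-like (0.50), 417 and 696 CPM in NK-cell-like (0.73) and 289 and 428 CPM in B-cell-like cells (0.56). It was the single member at 0.5 or more in T-cell-like (4.89% of genes) and B-cell-like cells (4.49%). In NK-cell-like cells Psmb9 joined it, from 185 to 270 CPM (0.53), for 2 of 10 members at 0.5 or more (9.42% of genes), while Nlrc5 and Erap1 lay at or below -0.5 (19.4% of genes). Across all 11 classes Psmb8, H2-D1 and Psmb9 had log2 ratios above 0 in 11 of 11, with counting intervals above 1 in 10, 10 and 9. H2-K1 was above 0 in 10 of 11, with 9 intervals above 1. No share of all genes above 0 in every class is given beside these counts, so they do not show how unusual the members are.

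Nlrc5 took the opposite direction in T-cell-like and NK-cell-like cells from that in phagocytes. It stood at 117 and 99.3 CPM in T-cell-like cells (-0.23, fold 0.85, 0.73 to 0.99) and at 94.0 and 62.0 CPM in NK-cell-like cells (-0.56, fold 0.66, 0.45 to 0.97). At 1000 UMIs per cell the share of T-cell-like cells with an Nlrc5 UMI was 11.9% in control (exact binomial interval 10.1 to 13.8) and in the library labelled knockout 12.2% (9.82 to 14.9), so the small drop in CPM was not seen in that share. In NK-cell-like cells the thinned share was 10.2% (6.74 to 14.5) in control and 6.5% (3.51 to 10.9) in the library labelled knockout. These intervals overlapped. Both negative log2 ratios lay above the 5th percentile of all measured genes, which was -0.49 in T-cell-like and -0.85 in NK-cell-like cells. In mononuclear phagocytes the thinned share went from 1.84% (1.26 to 2.58) to 3.57% (2.87 to 4.39). The heavy chains in T-cell-like cells stood at 2891 and 3085 CPM for H2-K1 (0.09) and 1793 and 2184 CPM for H2-D1 (0.28).

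Among T cells gated by their own transcripts, those with Foxp3, the regulatory lineage factor, differed most. In 119 and 93 Foxp3-gated cells, 4 of 10 members reached 0.5 (11.8% of genes) with a median of 0.26. Psmb8 stood at 541 and 936 CPM (0.78), H2-D1 at 2120 and 3084 CPM (0.54), Psmb9 at 255 and 376 CPM (0.55) and Tap1 at 263 and 386 CPM (0.54). In 482 and 290 CD8-gated cells the median was 0.02 with 0 of 10 at 0.5 or more (5.55%), and in 272 and 106 CD4-gated cells it was 0.16 with 0 of 10 (10.7%). The differences between these gates were not tested.

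The immunoproteasome subunits were also set against the constitutive subunits they replace. In monocyte-like cells Psmb8 made up 67.0% of the UMIs of Psmb8 and Psmb5 in control (65.5 to 68.6), against 73.4% in the library labelled knockout (72.4 to 74.3). Psmb9 went from 35.0% (32.9 to 37.0) to 44.7% (43.3 to 46.0) of the UMIs of Psmb9 and Psmb6, and Psmb10, the third inducible subunit, from 52.7% (50.4 to 54.9) to 60.3% (58.8 to 61.8) of those of Psmb10 and Psmb7. All 3 pairs thus moved toward the inducible form in these cells. In macrophage-like cells the Psmb8 share was 68.2% and 67.6%, and in T-cell-like cells 81.2% and 81.4%, with overlapping intervals in both. Psmb5 was higher too, at 152 and 196 CPM in macrophage-like and 131 and 185 CPM in T-cell-like cells. This was not particular to those classes. The median log2 ratio of the 3 constitutive subunits was 0.28 in monocyte-like, 0.32 in macrophage-like and 0.35 in T-cell-like cells.

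**Figure D4:**
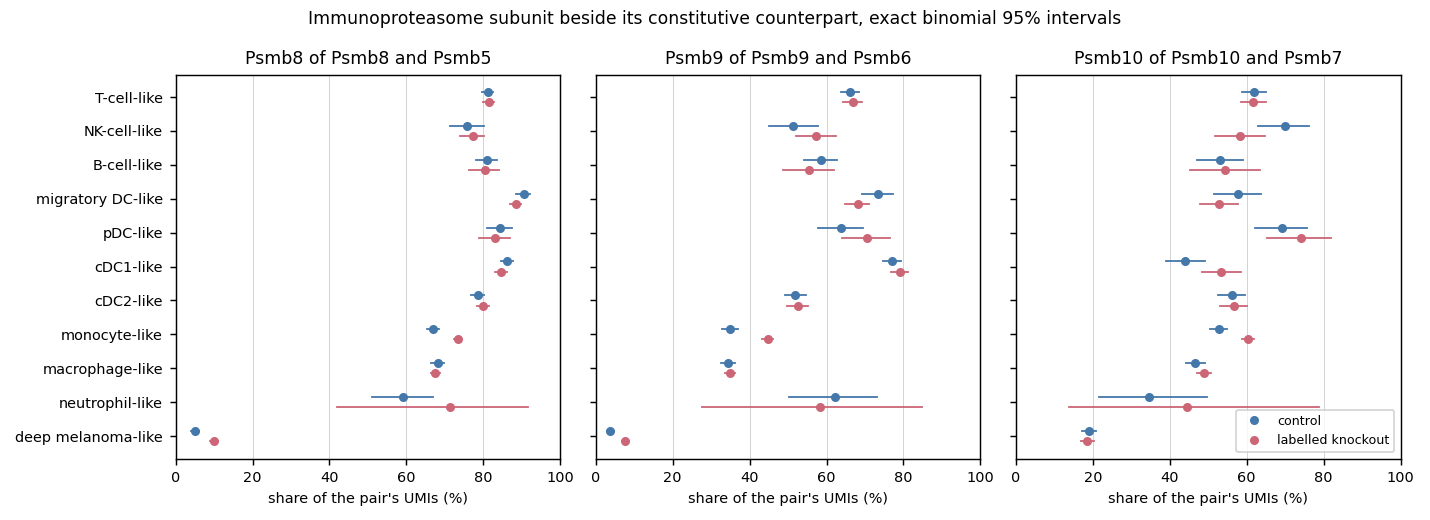
Share (%, x axis) of each inducible proteasome subunit in the summed UMIs of that subunit and its constitutive counterpart, by cell class and library, with exact binomial 95% intervals. Monocyte-like cells shift to the right in all 3 pairs, and deep melanoma-like cells lie at the left edge for Psmb8 and Psmb9.

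Melanoma-like cells passed the CD45 sort in both libraries and formed a deeply sequenced cluster of 129 control cells and 179 of the library labelled knockout, with medians of 51331 and 53910 UMIs, and a shallow cluster of 13 and 199 barcodes. The deep cells matched their name: the 9 melanoma markers summed to 17254 and 16726 CPM, against 80.6 and 91.7 CPM in mononuclear phagocytes. Ptprc, which encodes CD45, stood at 11.3 and 5.87 CPM. Over all melanoma-like cells 6 of 10 members reached a log2 ratio of 0.5 (0.664% of all genes) with a median of 0.68, and in the deep cells 6 of 10 did so (0.649%) with a median of 0.67.

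In the deep cells B2m went from 421 to 685 CPM (0.69), H2-D1 from 161 to 317 CPM (0.96) and H2-K1 from 153 to 264 CPM (0.77). Psmb8 was counted 93 and 276 times, a 2.27-fold difference in CPM (1.79 to 2.91, log2 ratio 0.94). Psmb9 stood at 9.89 and 22.9 CPM (0.90) and Tap1 at 8.64 and 16.4 CPM (0.65). The heavy chains, the light chain, both proteasome subunits and Tap1 were thus the 6 members past 0.5. Tapbp did not differ measurably, at 27.9 CPM in both (fold 1.00, 0.83 to 1.21), and neither did Nlrc5, at 3.48 and 4.59 CPM (25 and 43 UMIs, fold 1.32, 0.79 to 2.25). For the 3 abundant members the shift ran through the cells rather than sitting in a few. The median cell had 325 and 555 CPM of B2m, 137 and 267 CPM of H2-D1 and 111 and 236 CPM of H2-K1. The same cannot be said of the low members: the median cell had 0 CPM of Tap1 and Psmb9 in both libraries and of Psmb8 in control. The top 10% of cells held 74.2% and 56.5% of Psmb8 UMIs, 66.2% and 58.4% of Psmb9 UMIs and 54.8% and 40.9% of Tap1 UMIs. Psmb8 took 5.08% (4.12 to 6.18) of the UMIs of Psmb8 and Psmb5 in control and 9.91% (8.83 to 11.1) in the library labelled knockout, while Psmb10 took 18.9% and 18.5% of its pair.

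**Figure D5:**
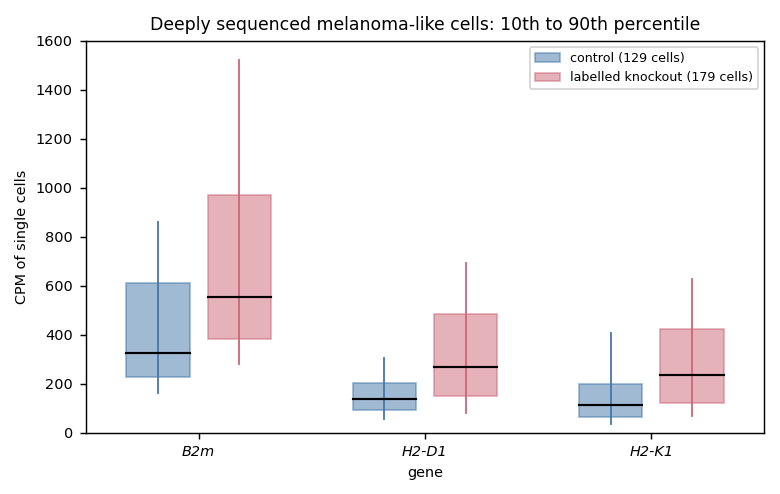
CPM in single deep melanoma-like cells (y axis) of B2m, H2-D1 and H2-K1 in control (129 cells) and in the library labelled knockout (179 cells). Boxes span the 25th to the 75th percentile, black lines are medians and thin lines run from the 10th to the 90th percentile, and for each gene the box and its median are shifted up in the library labelled knockout while the boxes overlap.

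Markers of leukocytes were counted in these melanoma-like cells beside that difference. The 10 macrophage markers summed to 1355 and 1512 CPM, 10.4% of their level in mononuclear phagocytes in each library, with none at 0. The 8 monocyte markers summed to 55.6 and 46.1 CPM, 1.18% and 0.924% of their level in those phagocytes. The C1q genes, which are among the macrophage markers, went from 9.75 to 49.2 CPM, 0.206% and 0.843% of their phagocyte level. Ptprc went from 11.3 to 5.87 CPM, 1.81% and 1.19% of its phagocyte level. The macrophage sum thus held little C1q and cannot be taken as leukocyte RNA alone. Scaling the phagocytes' H2-K1 level by the C1q ratio gives 2.12 and 12.5 CPM of H2-K1, and scaling it by the Ptprc ratio gives 18.7 and 17.6 CPM, beside the 153 and 264 CPM measured. As a share of the measured level this part was largest for Psmb8. There the Ptprc ratio gives 5.92 and 5.67 CPM, 45.7% and 19.2% of the measured levels. The C1q ratio gives 0.67 and 4.03 CPM of Psmb8, 5.20% and 13.7%. For Psmb9 the Ptprc ratio gives 2.10 and 2.26 CPM, 21.2% and 9.89%, and the C1q ratio 0.24 and 1.61 CPM, 2.41% and 7.03%. By Ptprc these shares were thus lower in the library labelled knockout, and by C1q they were higher. The part of leukocyte RNA in these ratios was not tested. In the deep cells without any Ptprc UMI (98 and 144 cells) 6 of 10 members reached 0.5 (0.62% of genes) and the median was 0.63.

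The other genes of the pathway were taken from a list of 43, of which 41 were in the feature table. In mononuclear phagocytes 9 of the 38 measured reached a log2 ratio of 0.5 (2.86% of all genes), 0 lay at or below -0.5 (1.31%), and the median was 0.10. Of 11 measured non-classical and related heavy chains, 6 did so, with H2-Q7 at 51.4 and 157 CPM (1.52), H2-T22 at 57.2 and 121 CPM (1.02) and H2-T23, the ligand of NKG2 receptors, at 130 and 220 CPM (0.74). Psmb10 stood at 124 and 177 CPM (0.51). Among regulators of class I promoters, the interferon-induced factor Irf1 stood at 42.9 and 64.6 CPM (0.54), and none of the measured Rfx and Nfy subunits reached 0.5. None of the 5 general loading genes did, with Calr at 0.18 and Pdia3 at 0.04. In T-cell-like cells 0 of 37 reached 0.5 (4.89% of genes) and 1, Nfya, lay below -0.5 (4.54%), from 28.1 to 17.4 CPM. In deep melanoma-like cells 1 of 34 reached 0.5 (0.649% of genes), H2-M3, from 3.48 to 7.69 CPM (0.58), with Irf1 at 0.42.

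Genes whose levels ran most like the members' were ranked over 18 values, 9 classes in 2 libraries, by Pearson's r, which is given as a description because the values share libraries and depth. Melanoma-like cells, lowest for nearly every member, were among the 9 classes, and pDC-like and neutrophil-like cells were not. A high r can thus reflect the gap between immune and melanoma-like cells. Closest to the members' mean profile among 5773 genes were Selplg (0.96), Dopey2 (0.96), Epsti1 (0.95), Prex1 (0.95) and Sp110 (0.95). Of the members themselves, Tapbp (0.95) and H2-D1 (0.95) lay nearest to that mean, to which each contributes, and Erap1 (0.78) farthest. Closest to Nlrc5 alone were AW112010 (0.95), Tnfaip3 (0.95), Cdc42ep3 (0.91), Nabp1 (0.91) and the chemokine Ccl5 (0.90), and of the members H2-K1 (0.89) came next to it and Psmb9 (0.72) last.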

How the data were processed

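The deposited files hold UMI counts of each gene in each barcode, made by the authors with Cell Ranger 3.0.1 on mm10, per the submitters' processing notes, and not normalized, per the file headers. Barcodes under 200 genes or above 10% mitochondrial UMIs were dropped. Scrublet scored doublets per library, and the top 0.8% per 1000 barcodes were removed (440 and 278). Cells were clustered in Python 3.11.15 with scanpy 1.11.5 and leidenalg 0.10.2 (2000 variable genes, 30 principal components, 15 neighbours, resolution 1), without the members, other pathway genes, interferon genes, Usp18, Lyz2 and technical genes. Intervals came from scipy 1.17.1.

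Of 27 clusters, 25 were named. A cluster took the class with the highest mean log2 fold of its markers, among classes with at least 3 markers detected (log2 fold of 0.5 or more in at least 10% of cells), unless another class led its 10 top genes. The limit to classes with 3 detected markers was set after the clusters were seen. Names mean "like". UMIs were summed by class within each library. Ratios used a pseudocount of 5 CPM and genes with 20 or more UMIs in the 2 libraries together. T cells were gated by Cd8a or Cd8b1, Cd4 and Foxp3 UMIs. The ratio script was tested on simulated data.

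All 10 members are named. Pathway genes are named from 1 list, of which 1 gene is not reported here, and other genes only as the 5 closest profiles to the members' mean and to Nlrc5, over classes with at least 100 cells per library. Members and lists were chosen with earlier results of these data known. Intervals are exact at 95% and cover counting error only. With 1 library per group there is no test.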

Additional observations from a re-analysis of the deposited data

Results flagged for a closer look

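Some members had ratios in opposite directions in cells of each sex, with counting intervals on opposite sides of 1. None of these differences was tested. In macrophage-like cells with Xist the log2 ratios were 0.41 for H2-K1, 0.14 for B2m, 0.56 for Tap2 and 0.52 for Tapbp, and in those with Y-linked UMIs they were -0.20, -0.12, -0.56 and -0.32. Over all mononuclear phagocytes, Tap2 stood at 0.54 where Xist was detected and at -0.32 where Y-linked UMIs were, and Tapbp at 0.57 and -0.15.

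Others had opposite directions in myeloid and lymphoid classes, also not tested. Nlrc5 had a log2 ratio of 0.81 in mononuclear phagocytes, -0.23 in T-cell-like and -0.56 in NK-cell-like cells. Tapbp had 0.40 in mononuclear phagocytes and -0.37 in B-cell-like cells. Each negative value lay above the 5th percentile of all measured genes of its class. That percentile was -0.49 in T-cell-like, -0.85 in NK-cell-like and -0.67 in B-cell-like cells.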

How the results depend on the processing

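No paired analysis was possible because each group is 1 library and the labels give no replicate numbers. Over 13 alternatives chosen with the design and 2 added after seeing the data, called member ratios changed sign 5 times, with Erap1 in NK-cell-like cells counted under 2 alternatives. With a mitochondrial limit of 5% these were H2-K1 in pDC-like cells (-0.062) and Erap1 in NK-cell-like cells (0.14). In cells with Xist it was Erap1 in NK-cell-like cells (0.16). In cells with Y-linked UMIs they were Tapbp in neutrophil-like cells (0.93) and Psmb9 in NK-cell-like cells (-0.066). The median in mononuclear phagocytes (0.49) went to 0.58 with the 5% limit, 0.60 as a mean over cells and 0.17 in cells with Y-linked UMIs, where the count of members at 0.5 or more went from 5 to 0. The median in B-cell-like cells (-0.07) went to 0.62 with the 5% limit, which left 79 of 1442 control cells and 42 of 439 cells of the library labelled knockout. In melanoma-like cells (0.68) it went to 1.14 as a mean over cells and 1.06 in cells with Y-linked UMIs, of which there were 12 and 5. The causes were not tested. Low counts limit Nlrc5 and Erap1 in melanoma-like, neutrophil-like and B-cell-like cells, and 1 pool per group limits every comparison.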
